A study of Homo sapiens with 12 samples.

Results

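In VAL, a diffuse large B-cell lymphoma line, cells carrying wild-type BCL7A were compared with cells carrying delta27-BCL7A, the splice-site mutant form of the protein. The comparison uses 4 of the 12 libraries of the series: the 2 labelled VAL with wild-type BCL7A and the 2 labelled VAL with delta27-BCL7A. The other 8 libraries are 2 of VAL with the empty vector and 6 of OCI-LY1, another diffuse large B-cell lymphoma line, with 2 for each of the same 3 vectors. They enter only the shared estimate of the spread and the side-by-side values given below. It asks how much of the RNA response depends on the part of BCL7A that the mutant lacks. The labels do not say which residues those are.

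All VAL cells kept their own BCL7A gene, and all received a vector, SAR2(LTR)-BCL7A-IRES-ZsGreen1 or its empty form. Both constructs were therefore added on top of the cell's own gene. Infection was repeated 3 times at a multiplicity of 2, and the short and the long BCL7A isoform were both given in each construct group. Cells positive for the ZsGreen1 reporter were sorted, and polyadenylated RNA was taken on day 17 in VAL and on day 10 in OCI-LY1. The 2 libraries of a group come from separate transductions of the same line, so the spread between them covers transduction, culture and library preparation in 1 cell line. The labels name no clone, sequencing date or other batch.

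BCL7A is a small subunit of the SWI/SNF (BAF) chromatin remodelling complexes, which move nucleosomes and open promoters and enhancers, and its gene is recurrently mutated in B-cell lymphoma. Germinal centre B cells, the cells from which these lymphomas arise, present antigen on MHC class II, signal through the B cell receptor and CD40, and use the NF-kB family of transcription factors to turn on survival, adhesion and costimulatory genes. NF-kB dimers are held in the cytoplasm by IkB proteins, and many of the genes they induce, NFKBIA and TNFAIP3 among them, encode inhibitors that shut the pathway off again. MHC genes and interferon-stimulated genes answer to overlapping factors, among them the interferon-activated STAT2 and IRF9 and the class II regulators CIITA and RFX.

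Total gene counts were 22473733 and 21839547 in the wild-type libraries and 24935893 and 22455756 in the delta27-BCL7A libraries. The 2 wild-type libraries differed more from each other than any other pair, at 7.50 for the chi-square statistic over genes divided by its degrees of freedom, against 1.51 for the delta27-BCL7A pair and 1.68 to 3.20 for the other 4 pairs. The share of reads set aside for low alignment quality was 6.0% and 6.37% with the wild type, 3.87% and 5.66% with delta27-BCL7A, and 4.72% and 5.76% with the empty vector. Because of this spread, counts or medians of several lists are also given below without single libraries. B cell identity was as labelled: all 7 B cell markers were present, at summed levels of 3582 and 3479 CPM (counts scaled to a common library size) with the wild type and 3316 and 3266 with delta27-BCL7A, and 3 of the 7 were called higher with the wild type. Of 13 T cell markers, 8 were under 1 CPM in all 4 libraries and CD3D and CD7 had no count. The summed T cell level was 191 and 182 CPM against 159 and 166, most of it TRBC2 and LCK, and TRBC2 and TRAC were called higher. Markers of natural killer cells summed to at most 2.03 CPM, of myeloid cells to at most 3.17, of fibroblasts to at most 1.85, and of epithelial and erythroid cells to at most 0.231 in these 4 libraries. COL1A1 was the 1 fibroblast marker called higher. The 5 plasma cell markers were not low. They summed to 877 and 787 CPM with the wild type and 821 and 815 with delta27-BCL7A, most of it JCHAIN. Of the 4 plasma cell markers tested, 1 was called higher. In bulk RNA, fewer cells of a kind and less RNA per cell cannot be told apart.

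BCL7A itself (ENSG00000110987.8, GRCh38 chr12:122019422-122062044, plus strand) was at 454 and 472 CPM in the wild-type libraries, at 490.2 and 485 CPM in the delta27-BCL7A libraries and at 291 and 283 CPM with the empty vector. Both constructs therefore lay above the empty vector in every library, and close to each other. The log2 fold change, wild type minus delta27-BCL7A, was -0.07 with a 95% interval of -0.17 to 0.02 (edgeR quasi-likelihood test, adjusted p = 0.346), so a difference in transcript level was not detectable. Gene counts do not separate the vector's RNA from the cell's own, nor the mutant form from the wild type. Its paralogs were level too: BCL7B was at 39.1 and 36.8 CPM against 39.1 and 38.0, and BCL7C at 17.1 and 17.4 CPM against 16.7 and 16.3.

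Across 17057 genes tested, 1547 differed between the constructs (edgeR quasi-likelihood test, Benjamini-Hochberg adjusted p under 0.05), which is 9.07% of those tested. Of these, 774 were higher with the wild type (4.54%) and 773 were lower (4.53%). Most differences were small. The median called gene changed by 0.27 on the log2 scale, or 1.21-fold, 285 genes changed by at least 0.5 and 58 by at least 1, 41 of them upward with the wild type and 17 downward. In 1546 of the 1547 the wild-type and mutant libraries did not overlap, which was also the case for 50.7% of all genes tested. The number called rests on the libraries. It was 649 without wild-type replicate 1, 2417 without wild-type replicate 2, 438 without delta27-BCL7A replicate 1 and 653 without delta27-BCL7A replicate 2, and the count of changes of at least 1 was 34, 103, 31 and 53 in the same order. In none of these 4 fits did a called gene change direction. Genes called higher had a median GC content of 56.0% and genes called lower 42.9%, against 49.3% over the genes tested. With each library corrected for trends with GC content and length, 573 genes were higher and 922 lower.

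The genes with the largest differences upward had a range of functions. SKAP1, an adaptor for integrin activation in lymphocytes, was at 3.26 and 2.31 CPM with the wild type against 1.04 and 0.914 with delta27-BCL7A, a log2 fold change of 1.51 (SE 0.28, adjusted p = 0.00048, edgeR). CCL17, a chemokine ligand of CCR4, was at 2.67 and 2.54 CPM against 1.08 and 0.776 (log2 fold change 1.47, SE 0.29). Every wild-type library was above every mutant library for both genes, which the rule for choosing them required. MARCHF1, a ubiquitin ligase that removes MHC class II and CD86 from the cell surface, was at 18.9 and 17.3 CPM against 9.34 and 7.95. KREMEN2, a co-receptor that restrains Wnt signalling, was at 18.5 and 15.2 CPM against 7.39 and 8.77, and MOB3C, a kinase activator family member, was at 18.5 and 14.9 CPM against 8.05 and 7.95. These 3 genes rose by 1.06 to 1.07 on the log2 scale. F13A1, the clotting factor XIII A chain, EGR1, an immediate early transcription factor, and C17orf99 rose by 1.10, 1.09 and 1.15. The calls on NOD2 and CR1 (log2 fold changes 1.43 and 1.33) were lost without delta27-BCL7A replicate 2, where the values were 1.03 and 1.08. The call on LILRA4 was lost without delta27-BCL7A replicate 1, where its value was 1.05. PTGIR and TUBB2B, at 1.09 and 1.15, lost theirs without wild-type replicate 1 (0.97 and 1.00), without delta27-BCL7A replicate 1 (1.09 and 1.02) and without delta27-BCL7A replicate 2 (1.11 and 1.30).

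Downward, the genes included TERT, the catalytic subunit of telomerase. It was at 10.6 and 13.3 CPM with the wild type, at 21 and 22 CPM with delta27-BCL7A and at 19.1 and 21.4 CPM with the empty vector. TERT (GRCh38 chr5:1253147-1295069, minus strand) thus fell by 0.85 on the log2 scale (SE 0.10, adjusted p = 8.94e-07, edgeR), 1.80-fold, and only the wild-type libraries were low. AK5, an adenylate kinase, was at 4.74 and 4.62 CPM against 8.13 and 8.45 and fell by 0.82. ASPH, an aspartate hydroxylase, fell by 0.81, and RNF125, a ubiquitin ligase that limits RIG-I signalling, by 0.72. Of 21 genes of telomerase and telomere protection, TERT, GAR1 and TEP1 were called, 2 lower and 1 higher, and none of the 10 shelterin and CST genes was. GAR1 (-0.20) lost its call in all 4 fits that leave out a library, and TEP1 (0.26) lost it without delta27-BCL7A replicate 2 (0.23). TLR4, the receptor for bacterial lipopolysaccharide, fell by 1.10, at 0.782 and 0.647 CPM against 1.95 and 1.10. It lost its call without wild-type replicate 1 (-1.25), without wild-type replicate 2 (-0.96) and without delta27-BCL7A replicate 1 (-0.60). MYCT1, COL4A3, LGALSL and KLHL13, between -1.04 and -0.72 and under 3 CPM, lost theirs in all 4. HNRNPLL (-0.86) lost it without wild-type replicate 1 (-0.82) and without delta27-BCL7A replicate 2 (-0.69).

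**Figure D1:**
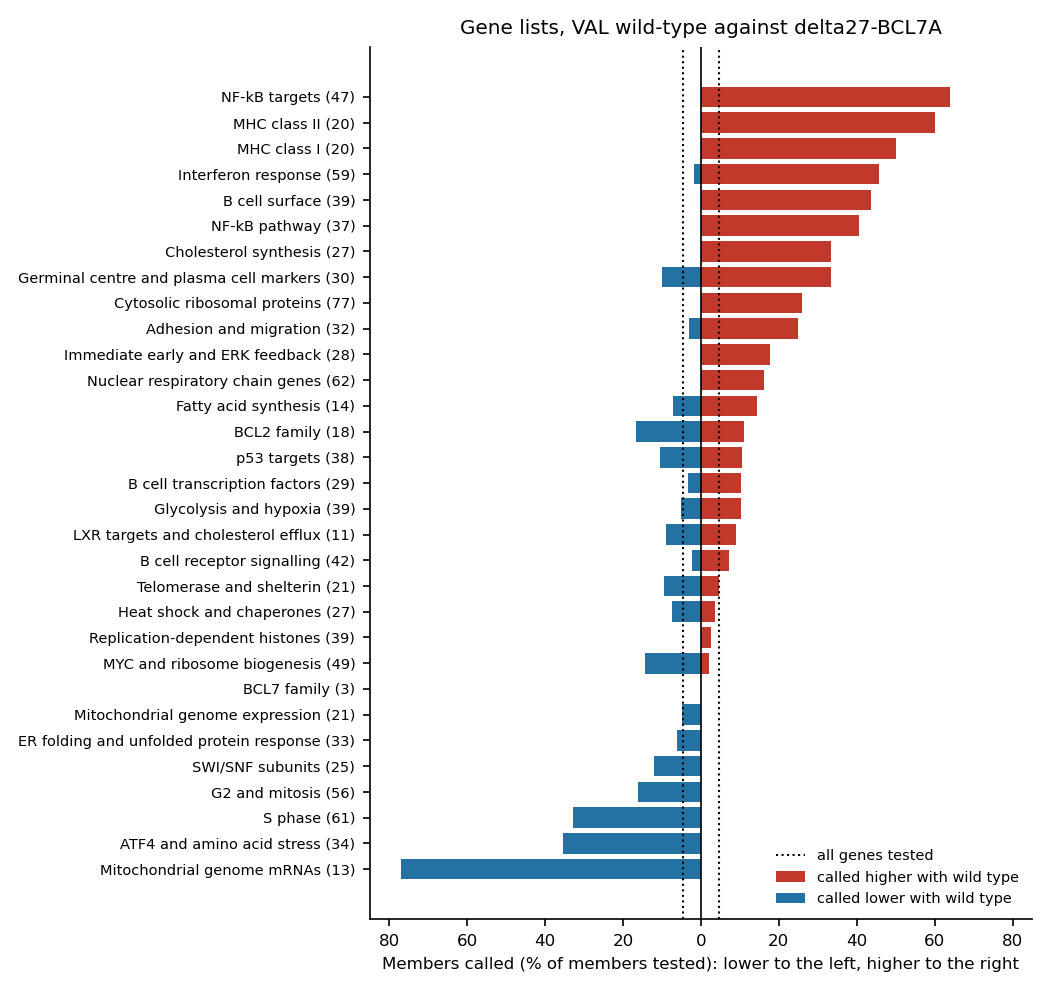
Share of tested members called higher (right, red) or lower (left, blue) with wild-type BCL7A than with delta27-BCL7A in VAL, for 31 gene lists with the number of tested members in brackets. Dotted lines mark the shares over all genes, 4.54% and 4.53%; NF-kB targets reach 63.8% higher and mitochondrial genome mRNAs 76.9% lower.

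Grouped by what the genes do, several lists had called members in 1 direction, as the plot of members called in each list shows. In the NF-kB, MHC and B cell surface lists the members called were all higher with the wild type, and in the interferon list 27 of the 28 called were. In the lists of mitochondrial genome mRNAs, ATF4 and amino acid stress, and S phase the members called were all lower. In several of these lists most members were not called. Some genes belong to more than 1 list, so the list counts are not separate from each other. The lists are described by counts and medians only, beside the 4.54% higher and 4.53% lower among all genes tested and a median log2 fold change over all genes of 0.0047.

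Among NF-kB target genes, 30 of 47 were higher with the wild type and none lower, with a median log2 fold change of 0.42. With the VAL libraries alone 27 were higher, and 24 with only the 4 libraries compared. The median was 0.32 and 0.48 without wild-type replicates 1 and 2, and 0.46 and 0.38 without delta27-BCL7A replicates 1 and 2. Among the ligands, TNF (GRCh38 chr6:31575567-31578336, plus strand), the founding cytokine of its family, was at 11.6 and 10.5 CPM with the wild type, 5.35 and 5.07 with delta27-BCL7A and 7.05 and 6.2 with the empty vector. Its log2 fold change was 1.09 (SE 0.13, adjusted p = 3.2e-07, edgeR), 2.12-fold, and the 3 groups did not overlap. LTA, lymphotoxin alpha, lay beside it on chromosome 6 and was at 22 and 16.7 CPM against 10.5 and 10.4 (0.89), and LTB, its membrane-bound partner, was at 135 and 126 CPM against 96.3 and 93.0 (0.46). Reads of the neighbouring TNF, LTA and LTB genes are counted apart unless they overlap another gene.

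Receptors and costimulatory molecules were also among the targets called. CD40, the receptor for T cell help, was at 98.0 and 88.3 CPM with the wild type against 65.1 and 62.2 with the mutant (log2 fold change 0.55, SE 0.06, adjusted p = 9.75e-08, edgeR). CD83, a marker of activated B cells, was at 153 and 119.7 CPM against 86.9 and 81.0 (0.70), and SLAMF1 at 109 and 99.7 CPM against 72.3 and 67.5 (0.57). ICAM1, the adhesion ligand of the integrin LFA-1, was at 56.5 and 50.3 CPM against 38.6 and 36.1 (0.52). CD80, a ligand of CD28, rose by 0.62, whereas CD86, another ligand of the same receptor, was at 41.0 and 38.0 CPM against 43.0 and 41.6 and was not called (adjusted p = 0.416, edgeR). Among survival genes BCL2A1, a BCL2-like protein, was at 34.4 and 28.6 CPM against 18.7 and 15.8 (0.87), while BIRC3 and CFLAR, with log2 fold changes of 0.11 and 0.10, were not called. BIRC3 was called higher without wild-type replicate 2 (0.20). In every gene named as higher here, both wild-type libraries were above both mutant libraries, and 1546 of the 1547 genes called did not overlap either.

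The pathway's own components were less uniform. Of 37 genes, 15 were higher and none lower, a median of 0.16. This list shares members with the list of NF-kB targets, TNFAIP3 among them, so the counts of the lists overlap. The receptors and ligands were 5 of 7 higher, the inhibitors 6 of 11, the adaptors and kinases 3 of 14 and the NF-kB subunits 1 of 5. NFKBIA, the IkB alpha inhibitor, was at 248 and 216 CPM with the wild type, 173 and 175 with delta27-BCL7A and 205 and 213 with the empty vector (log2 fold change 0.42, SE 0.05, adjusted p = 1.5e-06, edgeR). TNFAIP3, the ubiquitin-editing inhibitor A20, was at 45.6 and 43.3 CPM against 33.5 and 28.5 (0.51). NFKB2, the precursor of p52, rose by 0.35. The other subunits did not pass: RELA was at 52.7 and 58.9 CPM against 56.3 and 54.2, NFKB1 at 147 and 154 CPM against 155 and 148, and RELB had a log2 fold change of 0.16. REL, the subunit most used in germinal centre B cells, was at 128 CPM in wild-type replicate 1 and 210.3 in replicate 2, against 219 and 217, so the wild-type libraries differed from each other; REL was called lower without wild-type replicate 2 (-0.75). The inhibitors called were 3 without delta27-BCL7A replicate 2, and the adaptors and kinases 1 without that library, 1 without wild-type replicate 1 and 2 without delta27-BCL7A replicate 1.

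Promoter sequences from RefSeq were searched for a short form of the kB site, GGNNTTTCC on either strand, within 250 bases before to 50 bases after the start of each gene. It was present in 13 of 38 NF-kB target promoters (34.2%), in 5 of the 25 targets called higher with a promoter sequence, and in 6.67% of the promoters of all genes tested. The 2 below belong to NFKBIA and ICAM1, whose RNA levels are given above, and show where the match lies relative to the start; capitals mark the matches, and each sequence ends at the base before the start site.
NFKBIA, chr14:35404750-35404999, minus strand, matches starting at -242 and -81: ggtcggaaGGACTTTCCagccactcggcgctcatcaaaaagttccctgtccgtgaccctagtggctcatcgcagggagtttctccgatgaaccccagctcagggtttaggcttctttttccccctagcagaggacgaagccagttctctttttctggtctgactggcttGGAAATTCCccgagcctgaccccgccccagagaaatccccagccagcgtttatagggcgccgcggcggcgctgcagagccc
ICAM1, chr19:10270874-10271119, plus strand, match starting at -186: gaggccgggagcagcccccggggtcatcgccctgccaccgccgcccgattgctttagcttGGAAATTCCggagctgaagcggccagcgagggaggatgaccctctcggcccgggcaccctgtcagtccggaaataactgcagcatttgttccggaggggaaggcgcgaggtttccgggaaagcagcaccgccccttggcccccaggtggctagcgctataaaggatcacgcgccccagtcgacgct
A match is a description of letters, not of binding. Coordinates are on GRCh38.p14 and all sequences here are written 5′ to 3′ on the gene's own strand.

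**Figure D2:**
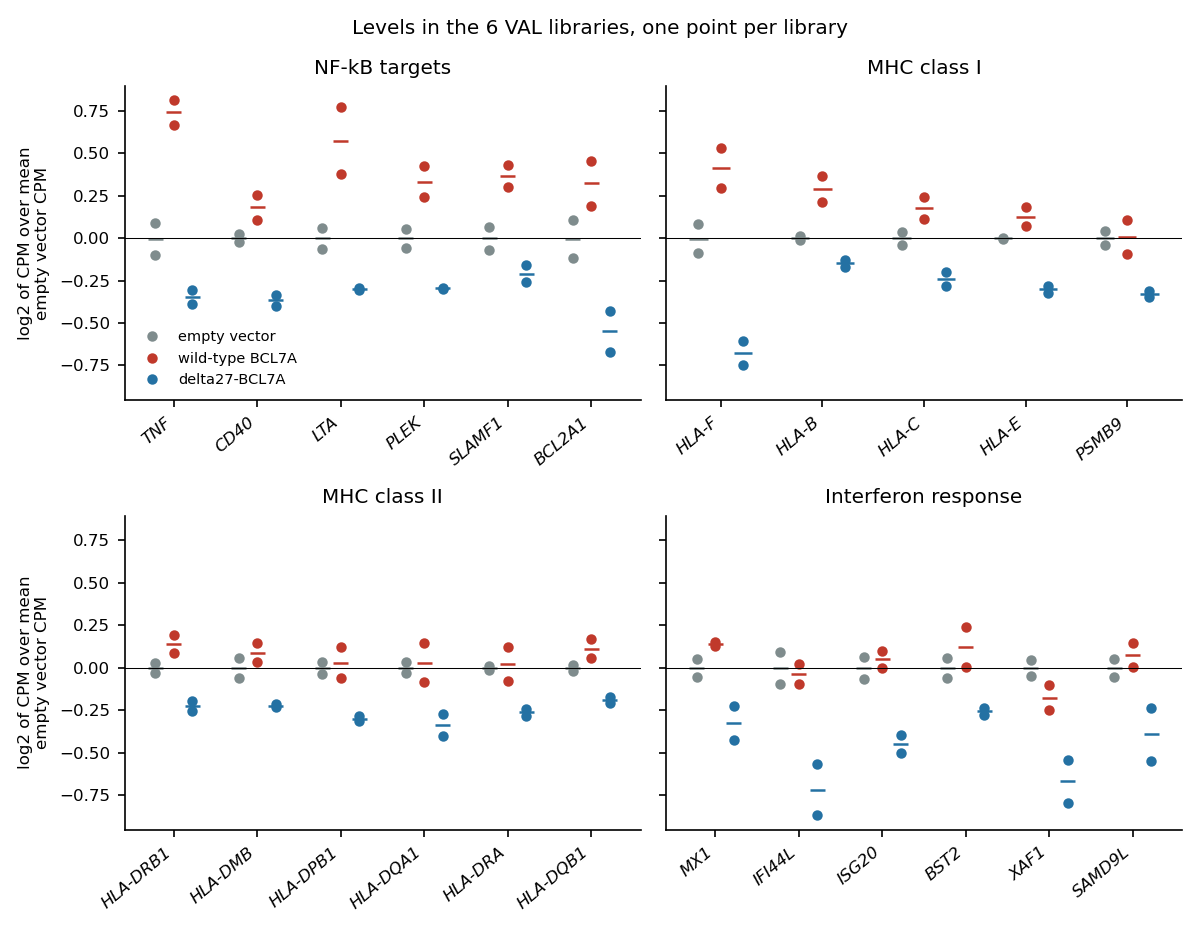
Level of 5 or 6 genes of each of 4 lists in the 6 VAL libraries, chosen by smallest p among the members called. Values are log2 of CPM over the mean CPM of the empty vector libraries. Each point is 1 library and each bar the mean of 2. Red points (wild type) lie above blue points (delta27-BCL7A) for all 23 genes, as the choice of called genes made nearly certain. Members not called are not shown. In the MHC class II and interferon panels the red points lie near the grey empty vector points.

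MHC class I genes, which display cytosolic peptides to CD8 T cells, were 10 of 20 higher and none lower, with a median log2 fold change of 0.16. All 6 chains tested were higher. HLA-B was at 1093 and 982 CPM with the wild type, 775 and 754 with delta27-BCL7A and 854 and 840.1 with the empty vector, a log2 fold change of 0.44 (SE 0.05, adjusted p = 3.05e-07, edgeR). HLA-C was at 300.2 and 274 CPM against 221 and 209 (0.42), and the less variable HLA-E at 276 and 255 CPM against 199.8 and 194 (0.43). HLA-F had the largest rise, 2.13-fold, from 5.89 and 5.34 CPM to 13 and 11. B2M, the shared light chain, rose by 0.21, a call lost without wild-type replicate 1 (0.12) and without delta27-BCL7A replicate 2 (0.18). Of the 12 genes of peptide supply and loading 4 were higher, among them TAP1, a subunit of the peptide transporter, and the immunoproteasome subunit PSMB9, at 0.29 and 0.34. TAP2, the other subunit of the transporter, had a log2 fold change of 0.11 and was not called, and neither was the class I regulator NLRC5, at 0.09. Reads of the HLA genes are hard to divide among near-identical copies and alleles, so single HLA values carry that uncertainty.

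MHC class II genes, which present antigen to CD4 T cells, were 12 of 20 higher and none lower, with a median of 0.29. Members of the DR, DP and DQ pairs were among them. HLA-DRA was at 1272 and 1109.8 CPM with the wild type against 989 and 960.2 with the mutant, HLA-DRB1 at 246 and 228 CPM against 187 and 180.3, HLA-DPA1 at 344 and 303 CPM against 269 and 262, and HLA-DQA1 at 155 and 132 CPM against 116 and 106. The log2 fold changes of the 8 chains tested lay between 0.28 and 0.37, and 6 were called. Of 8 genes of peptide loading 5 were higher, and 3 were without wild-type replicate 1 or delta27-BCL7A replicate 1 and 2 without delta27-BCL7A replicate 2. HLA-DMB, part of the HLA-DM peptide exchanger, was at 197 and 182 CPM against 153 and 152 (0.31, SE 0.05, adjusted p = 0.000118, edgeR). CD74, the invariant chain, rose by 0.19, a call lost without delta27-BCL7A replicate 1 (0.22) and without replicate 2 (0.18). CIITA, the master regulator of class II transcription, was at 181 and 220.0 CPM against 194 and 187 and was not called (adjusted p = 0.549, edgeR), but was called higher without wild-type replicate 1 (0.21). Of the RFX factors that bind class II promoters, RFX5 and RFXAP, at 0.05 and -0.22, were not called. RFXANK rose by 0.34, from 26.7 and 27.3 CPM to 36.7 and 31.8, a call lost without wild-type replicate 1 (0.24).

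Class II promoters share an S-X-Y module whose Y box is an inverted CCAAT element bound by NF-Y. Its core, GATTGG on either strand, was present in 10 of 16 class II promoters (62.5%), in 6 of the 10 class II genes called higher with a promoter sequence, and in 19.9% of the promoters of all genes tested. The promoters of HLA-DRB1 and HLA-DMB, both called higher, are shown with the match in capitals and end at the base before the start site. In HLA-DMB the match reads CCAATC on the gene's own strand, the opposite orientation to the inverted CCAAT of the Y box.
HLA-DRB1, chr6:32589849-32589955, minus strand, match starting at -47: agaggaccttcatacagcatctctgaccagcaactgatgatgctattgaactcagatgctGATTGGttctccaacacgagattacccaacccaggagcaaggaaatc
HLA-DMB, chr6:32941029-32941110, minus strand, match starting at -22: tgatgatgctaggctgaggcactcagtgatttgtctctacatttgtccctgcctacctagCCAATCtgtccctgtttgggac

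Interferon-stimulated genes were 27 of 59 higher and 1 lower, with a median log2 fold change of 0.30. The count rests on delta27-BCL7A replicate 2: without it 12 members were higher, and without wild-type replicate 1 18 were. Within the list, 13 of 20 antiviral effectors were higher, and 6 were without delta27-BCL7A replicate 2. MX1, a GTPase that blocks incoming viral ribonucleoproteins, was at 516 and 508 CPM with the wild type, 398 and 347 with delta27-BCL7A and 448 and 482 with the empty vector (0.46, SE 0.05, adjusted p = 1.76e-07, edgeR). IFI44L was at 101 and 109.6 CPM against 73.0 and 59.1 (0.67), with 115 and 101 CPM for the empty vector. ISG20, an RNA exonuclease, was at 55.6 and 51.9 CPM against 39.4 and 36.7 (0.50), and BST2, the tetherin that holds budding virions, at 119.7 and 102 CPM against 86.2 and 83.5 (0.38). As nearly all called genes had groups that did not overlap, in these 4 genes too both wild-type libraries lay above both mutant libraries. Against the empty vector, at 49.6 and 54.2 CPM for ISG20 and 97.2 and 106 CPM for BST2, they overlapped for IFI44L, ISG20 and BST2 and were higher for MX1. XAF1 and SAMD9L rose by 0.49 and 0.46.

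Of the 11 receptors and signalling factors of the interferon list 2 were higher and 1 lower. STAT2 was at 155 and 158 CPM with the wild type against 130.1 and 123 (0.30), and IRF7, the amplifier of type I interferon, rose by 0.46. IRF9, the DNA-binding partner of STAT2, was at 25.8 and 26.8 CPM against 25.3 and 22 (0.15, adjusted p = 0.305, edgeR) and was not called. The receptor chain IFNAR1 was the member called lower, by 0.17, a call lost in all 4 fits that leave out a library.

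The interferon-activated factor that contains STAT2 and IRF9 binds the interferon-stimulated response element, whose core TTCNNTTTC was searched on either strand. It was present in 25 of 44 interferon promoters (56.8%), in 16 of the 21 members called higher with a promoter sequence, and in 6.81% of the promoters of all genes tested. MX1 and IFI44L, whose levels are given above, are shown. In MX1 the 2 matches overlap each other and begin at positions 12 and 18 after the start site, so 26 transcribed bases are included; the IFI44L sequence ends at the base before the start.
MX1, chr21:41420509-41420583, plus strand: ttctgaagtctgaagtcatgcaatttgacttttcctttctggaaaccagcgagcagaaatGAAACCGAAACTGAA
IFI44L, chr1:78620224-78620447, plus strand, matches starting at -164 and -73: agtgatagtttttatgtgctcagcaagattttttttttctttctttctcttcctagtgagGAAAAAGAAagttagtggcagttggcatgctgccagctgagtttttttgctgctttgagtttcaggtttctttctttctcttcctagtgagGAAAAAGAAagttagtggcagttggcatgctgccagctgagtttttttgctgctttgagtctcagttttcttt
In IFI44L both matches lie within copies of 1 repeated stretch.

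B cell surface genes were 17 of 39 higher and none lower, with a median of 0.19, and 11 were higher without delta27-BCL7A replicate 2. The complement receptor CR2 (CD21), part of the B cell co-receptor, was at 41.3 and 41.0 CPM with the wild type, 23.1 and 21.9 with delta27-BCL7A and 26.4 and 21.4 with the empty vector (0.87, SE 0.09, adjusted p = 1.68e-08, edgeR). CD27, a memory B cell marker, was at 323 and 307 CPM against 234 and 232 (0.43), and the tetraspanin CD53 at 293 and 260.2 CPM against 208 and 208 (0.41). MS4A1 (CD20), the target of rituximab, was at 1396 and 1302 CPM against 1295 and 1252, and CD22 at 295 and 314 CPM against 297 and 286; neither was called (adjusted p = 0.354 and 0.497, edgeR), but MS4A1 was higher without wild-type replicate 2 (0.15).

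Of 42 genes of signalling downstream of the B cell receptor 3 were higher and 1 lower. Without wild-type replicate 1 there were 5 and none, without wild-type replicate 2 there were 4 and 4, and without delta27-BCL7A replicate 1 none was lower. PTPN6, the inhibitory phosphatase SHP-1, was at 119.6 and 108 CPM with the wild type against 73.6 and 69.0 (0.68, SE 0.06, adjusted p = 1.94e-09, edgeR). PRKCB, the kinase that links the receptor to NF-kB, was at 31.9 and 33.9 CPM against 19.3 and 19.2 (0.77). RASGRP3 rose by 0.30, and NFATC2 fell by 0.21, a call lost without wild-type replicate 1 and without delta27-BCL7A replicate 1 (-0.14 and -0.15). Among 29 B cell transcription factors, SPIB, STAT6 and IRF4 were higher, at 0.34, 0.33 and 0.27, and IKZF1 lower, at -0.19; 5 were lower without wild-type replicate 2. IRF4 lost its call without delta27-BCL7A replicate 2 (0.26, adjusted p = 0.0509), and IKZF1 without wild-type replicate 1 and without delta27-BCL7A replicate 1 (-0.09 and -0.14). SERPINA9, a serpin typical of the germinal centre, was at 26.8 and 26.2 CPM against 13.7 and 13.4 (0.96, SE 0.09), with 15.1 and 14.3 for the empty vector. PIM1, a survival kinase more typical of activated B cells, was at 82.8 and 67.8 CPM against 52.8 and 51.7 (0.53). Of 16 germinal centre markers 4 were higher and 2 lower, and of 14 activated or plasma cell markers 6 were higher and 1 lower. Without delta27-BCL7A replicate 2 these counts of higher genes were 2 and 3. Without wild-type replicate 1 the germinal centre count was 2, and without delta27-BCL7A replicate 1 the other was 3. In the adhesion and migration list 8 of 32 were higher and 1 lower; GPR183, the oxysterol receptor that positions B cells in the follicle, was at 6.76 and 5.27 CPM against 3.07 and 2.79 (1.03), and the integrin chain ITGB2 at 17.2 and 17.3 CPM against 11.3 and 11.5 (0.60). Without delta27-BCL7A replicate 2, 5 members of that list were higher, and without wild-type replicate 2, 13.

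**Figure D3:**
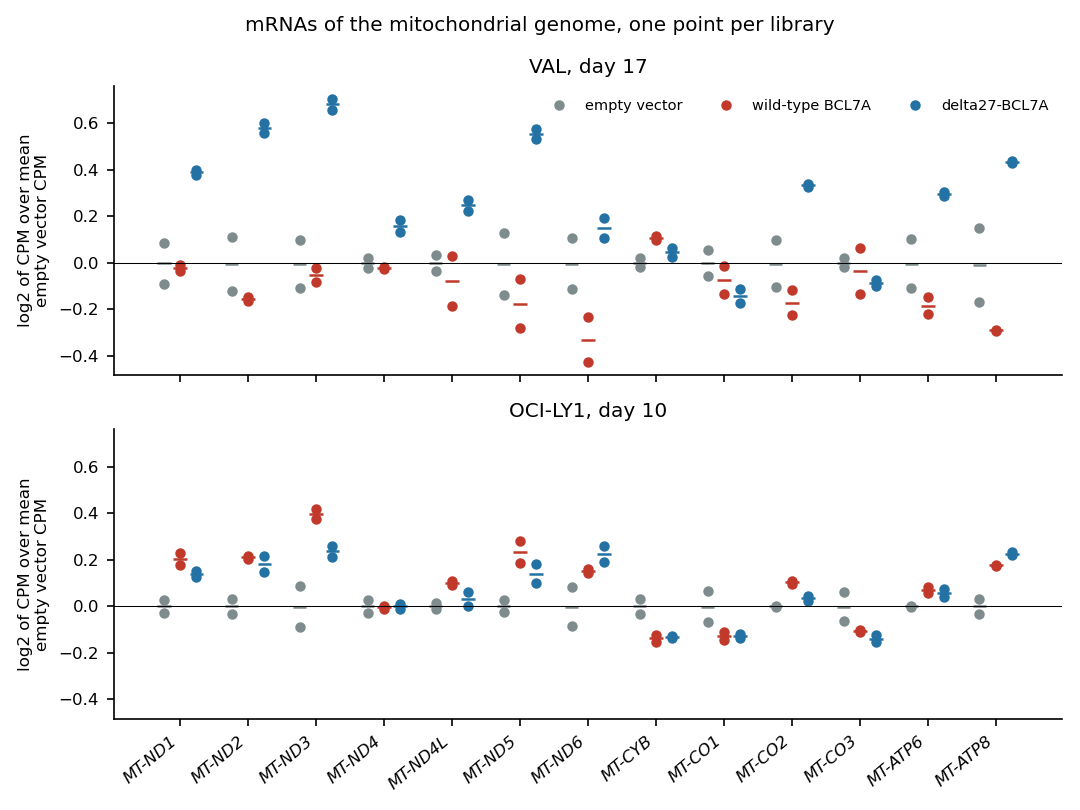
Level of the 13 mRNAs of the mitochondrial genome in each library of VAL (top) and OCI-LY1 (bottom), as log2 of CPM over the mean CPM of the empty vector libraries of that line; points are libraries and bars means of 2. In VAL the blue delta27-BCL7A points lie above the red wild-type points for 10 mRNAs and not for MT-CYB, MT-CO1 and MT-CO3; in OCI-LY1 no mRNA was called different.

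The mitochondrial genome encodes subunits of the respiratory chain in long transcripts that are cut into mRNAs. In VAL 10 of the 13 mRNAs were lower with the wild type than with delta27-BCL7A and none higher, with a median log2 fold change of -0.48. All 7 subunits of complex I were lower. MT-ND2 was at 877 and 886 CPM with the wild type, 1448 and 1491 with delta27-BCL7A and 1062 and 904 with the empty vector (log2 fold change -0.74, SE 0.06, adjusted p = 4.36e-11, edgeR). MT-ND3 was at 213 and 204 CPM against 341 and 352 (-0.74), and MT-ATP8, a subunit of the ATP synthase, at 194 and 193 CPM against 321 and 319 (-0.73). MT-ND5 was at 1221 and 1414 CPM with the wild type and 2212 and 2150.0 CPM in the mutant libraries (-0.73), a call lost by a small margin without wild-type replicate 1 (-0.62, adjusted p = 0.052). MT-ND4, at -0.18, lost its call without either mutant library (-0.15 and -0.20). In each of these genes the mutant libraries were the high ones.

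The fall was not shared by all transcripts of the mitochondrial genome. MT-CO1 was at 7365 and 6769 CPM with the wild type against 6872 and 6588, MT-CYB at 1568 and 1548 CPM against 1514 and 1474, and MT-CO3 at 3850.1 and 3358 CPM against 3504 and 3439. Their log2 fold changes lay between 0.05 and 0.07 and none was called; without wild-type replicate 2, MT-CO1 and MT-CO3 were called higher (0.14 and 0.16). The ribosomal RNAs MT-RNR1 and MT-RNR2, also named after their values were seen, were not called either, at 0.02 and 0.06. The mitochondrial genome as a whole took 2.79% and 2.68% of gene counts with the wild type, 3.10% and 3.06% with delta27-BCL7A and 3.00% and 2.76% with the empty vector. MT-ND5 and MT-ND6 lie on opposite strands, and the strand setting of the counting is not given in the sources used here. Parts of the mitochondrial genome also have near-identical copies in the nuclear genome. Of these, MTND2P28 and MTATP6P1 on chromosome 1, likewise named after their values were seen, fell with their mitochondrial counterparts by 0.71 and 0.47, while MTCO1P12 beside them, at 0.59, was not called. Of 21 nuclear genes that transcribe, process or translate mitochondrial RNA, only TFAM, the packaging and transcription factor of mitochondrial DNA, was called. It was at 162 and 163 CPM against 193 and 194 and was lower by 0.25 (SE 0.05, adjusted p = 0.000768, edgeR). Against the empty vector no gene of this list was called with the wild type, and 1 was higher and 1 lower with delta27-BCL7A.

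Several lists of small differences changed their counts with every library left out. Of 77 cytosolic ribosomal protein genes 20 were higher with the wild type, with a median of 0.13, but none was without wild-type replicate 1, 73 were without wild-type replicate 2, 1 was without delta27-BCL7A replicate 1 and none without replicate 2. None was with the VAL libraries alone or with only the 4 libraries compared, and 6 were after the correction for GC content and length. RPL10 is an example, with 2094 CPM in wild-type replicate 1, 1793 in replicate 2, 1660.1 and 1637 with delta27-BCL7A and 1951 and 1886 with the empty vector. Nuclear genes of the respiratory chain were 10 of 62 higher, and none, 28, 1 and none were in the 4 fits that leave out a library; 4 were with the VAL libraries alone and none with only the 4 libraries. Cholesterol synthesis genes were 9 of 27 higher and none lower, and 2, 14, 4 and 3 were. Of these, LSS, the lanosterol synthase, kept its call in all 4 fits. LSS was at 119.9 and 105 CPM with the wild type against 89.9 and 87.6 (0.34), with 130.2 and 112 for the empty vector.

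Outside the mitochondrial genome a smaller share of each list was lower with the wild type, and the median changes were smaller. In the ATF4 list of amino acid supply and stress 12 of 34 were lower and none higher, with a median of -0.14. Without delta27-BCL7A replicate 2, 4 were lower, without delta27-BCL7A replicate 1 7 and without wild-type replicate 2 8. PSAT1, an enzyme of serine synthesis, was at 118 and 117 CPM against 154 and 163 (-0.43, SE 0.05, adjusted p = 1.03e-06, edgeR), and SLC7A11, the cystine transporter, at 8.87 and 8.83 CPM against 13.4 and 15.1 (-0.69). The empty vector had 152 and 145 CPM for PSAT1 and 14.3 and 13.4 for SLC7A11. For both genes the wild-type libraries were therefore the low ones. S phase genes, given next, differed in this. Their median log2 fold changes over the empty vector were 0.01 with the wild type and 0.15 with delta27-BCL7A. For G2 and mitosis genes those medians were 0.01 and 0.11. S phase genes were 20 of 61 lower and none higher, with a median of -0.13, and 11, 22, 5 and 5 were lower without wild-type replicates 1 and 2 and delta27-BCL7A replicates 1 and 2. GINS4, part of the replicative helicase, and RFC3, part of the clamp loader, fell by 0.31 and 0.29 and kept their calls in the 4 fits. G2 and mitosis genes were 9 of 56 lower, and 6, 15, 2 and 3 in the same order. KIF20B and KIF11, mitotic kinesins that fell by 0.30 and 0.25, kept their calls there but not after the GC correction.

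Other lists lay nearer the background. SWI/SNF subunits were 3 of 25 lower and none higher. BICRAL, a subunit specific to the non-canonical GBAF complexes, was at 40.3 and 46.3 CPM with the wild type, 62.2 and 58.7 with delta27-BCL7A and 61.6 and 57.9 with the empty vector (-0.48, SE 0.07, adjusted p = 3.29e-06, edgeR). PBRM1 and PHF10, subunits of PBAF, were at -0.20 and -0.21; PHF10 lost its call without delta27-BCL7A replicate 1 (-0.17), and PBRM1 without wild-type replicate 1 (-0.09), delta27-BCL7A replicate 1 (-0.16) and replicate 2 (-0.23). None of the 11 ATPase and core subunits was called. Without wild-type replicate 2, 8 of the 25 were lower and 2 higher, and without delta27-BCL7A replicate 1 1 was lower. The p53 targets were 4 of 38 higher and 4 lower, with CDKN1A, the p21 cell cycle inhibitor, at 0.35 and RRM2B, a ribonucleotide reductase subunit, at -0.26; without delta27-BCL7A replicate 2 there was 1 in each direction, and without delta27-BCL7A replicate 1 2 were lower. Glycolysis and hypoxia genes were 4 of 39 higher and 2 lower, among them HK2, the first kinase of glycolysis, at 99.0 and 104 CPM against 135 and 132 (-0.39); without wild-type replicate 1 or delta27-BCL7A replicate 1, 2 were higher, and without delta27-BCL7A replicate 2 1 was lower. Genes of the unfolded protein response, the heat shock response and replication-dependent histones were called at 2 of 33, 3 of 27 and 1 of 39; without delta27-BCL7A replicate 1, or replicate 2, the counts were 1, 1 and none, and without wild-type replicate 2 they were 6, 3 and 2.

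The empty vector shows on which side of it each construct lay. It was the comparator in 2 further contrasts, which share its libraries and so are given side by side and not correlated. Their counts are given for the fit over all 12 libraries only. Counts of wild type against delta27-BCL7A moved when single libraries were left out, so these counts may rest on single libraries too. Against the empty vector, 276 genes were called with wild-type BCL7A (1.62%; 151 higher, 125 lower) and 875 with delta27-BCL7A (5.13%; 427 higher, 448 lower). Wild-type BCL7A gave 10 NF-kB targets called higher and 1 called lower, and delta27-BCL7A gave 14 called lower and none higher, with medians of 0.20 and -0.23. MHC class II genes were 1 higher with the wild type and 8 lower with delta27-BCL7A. Of the MHC class I genes, wild-type BCL7A gave 2 called higher, and delta27-BCL7A gave 10 called lower and 1 higher. Among B cell surface genes, wild-type cells had 6 called above the empty vector and 4 below it. In delta27-BCL7A cells 15 were below it and none above. Cholesterol synthesis genes lay only below the empty vector, 2 in wild-type cells and 17 in delta27-BCL7A cells. Of the cytosolic ribosomal protein genes, none was called with the wild type, whereas 23 were below the empty vector with delta27-BCL7A. For the interferon list no member was called with the wild type and 23 were lower with delta27-BCL7A. Mitochondrial mRNAs were 2 lower with the wild type and 8 higher with delta27-BCL7A. No S phase or G2 and mitosis gene was called with the wild type. With delta27-BCL7A 21 S phase genes and 7 G2 and mitosis genes were higher and none lower. The ATF4 list went the other way, with 5 lower with the wild type and 1 higher and 1 lower with delta27-BCL7A. Single genes differed in the same respect. CR2, SERPINA9, PIM1 and PRKCB were called higher with the wild type (log2 fold changes of 0.79, 0.85, 0.52 and 0.63) and not called with the mutant. TERT, AK5, BICRAL and SLC7A11 were called lower with the wild type (-0.76, -0.88, -0.47 and -0.64) and not called with the mutant. IFI44L, XAF1, HLA-DPB1 and MT-ND2 were called with the mutant (-0.71, -0.66, -0.30 and 0.58) and not with the wild type. CD53 was called in opposite directions, at 0.21 for the wild type and -0.20 for the mutant. For genes called with 1 construct and not with the other, the difference between the constructs is the test reported above.

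**Figure D4:**
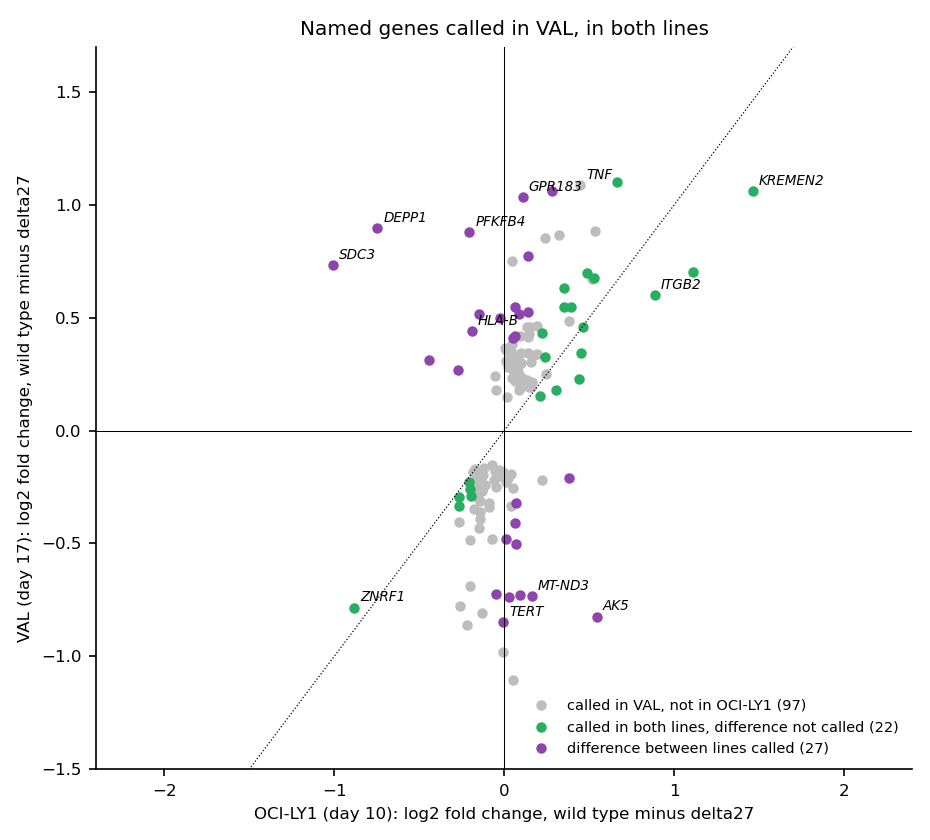
Log2 fold change of wild type minus delta27-BCL7A in OCI-LY1 (horizontal) and VAL (vertical) for 146 genes named by rule, called in VAL and with a mean of at least 1 CPM over the OCI-LY1 construct groups; the dotted line marks equal values. Purple marks the 27 genes whose difference between lines was called, green 22 others called in both lines and grey 97 called in VAL but not in OCI-LY1.

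The same contrast in OCI-LY1 shares no library with that in VAL, but the lines were taken on days 17 and 10, so line and day cannot be told apart. In OCI-LY1 521 genes were called (3.05%), of which 286 lay higher and 235 lower, and 113, 137 and 75 were called without OCI-LY1 wild-type replicates 1 and 2 and delta27-BCL7A replicate 2. In both lines 216 genes were called in the same direction, 116 higher and 100 lower, and 5 in opposite directions. The 216 are 14% of the VAL calls and 41.5% of the OCI-LY1 calls. That number was 199, 368, 74 and 150 without VAL wild-type replicates 1 and 2 and VAL delta27-BCL7A replicates 1 and 2. F13A1 (1.10 in VAL and 0.66 in OCI-LY1), KREMEN2 (1.06 and 1.46), LGALS9, a galectin (0.70 and 1.11), and ITGB2 (0.60 and 0.88) were higher with the wild type in both. In OCI-LY1 LGALS9 was at 7.65 and 8.30 CPM with the wild type against 3.26 and 4.10 with delta27-BCL7A. ZNRF1, a ubiquitin ligase, was lower in both (-0.78 and -0.89), a VAL call lost without wild-type replicate 1 (-0.73) and without delta27-BCL7A replicate 1 (-0.76).

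The difference between the lines itself, VAL minus OCI-LY1, was called for 77 genes (0.451%), 46 above and 31 below 0, and 1573 had an unadjusted p under 0.05. The count was 631 without VAL wild-type replicate 2, 47 and 27 without VAL delta27-BCL7A replicates 1 and 2, 23 and 32 without OCI-LY1 wild-type replicates 1 and 2, and 39 and 29 without OCI-LY1 delta27-BCL7A replicates 1 and 2. It was called for 8 of the 13 mitochondrial mRNAs. MT-ND2 was at 1616 and 1600.9 CPM with the wild type and 1613 and 1541 with delta27-BCL7A in OCI-LY1, a log2 fold change of 0.03 there and a difference of -0.76 between the lines. For MHC class I the difference was called for 3 members, HLA-B and HLA-C (0.63 and 0.35) among them, which in OCI-LY1 had log2 fold changes of -0.19 and 0.07. HLA-B was at 16.6 and 19.9 CPM with the wild type in OCI-LY1, far below its level in VAL. HLA-DRA did not exceed 0.941 CPM there, so it could not be compared at this depth, and no class II chain was called in OCI-LY1. Among the class II genes of peptide loading 1 was called lower in OCI-LY1. The difference between lines was called for HLA-DMB (0.75). It was larger than the log2 fold change of HLA-DMB in VAL, so the value in OCI-LY1 was negative. TERT was at 28.7 and 23.9 CPM with the wild type and 27.7 and 25.1 with delta27-BCL7A in OCI-LY1, and its difference between the lines was -0.84. For NF-kB targets 6 of 47 were called higher in OCI-LY1 and none lower, with a median of 0.11, and the difference was called for 5, CD40, TNFAIP3, ICAM1, GPR183 and IRF4. For the interferon list 8 of 59 were called higher in OCI-LY1, and the difference was called for 1, ISG20. The remaining members of these lists were not called different between lines, which does not show that the lines responded alike.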

How the data were processed

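RNA was measured by polyadenylated RNA sequencing (TruSeq Stranded mRNA kit, per the labels) in 12 libraries, 2 in each of 6 groups, of which 4 are compared here. The authors deposited raw read counts per gene, 1 table per library. The submitters' processing notes name HTSeq 0.11.2, STAR 2.6.1b, DESeq2, edgeR and R 3.6.1, with no roles, and the build GRCh38 (hg38); the annotation release and strand setting are not given in the sources used here. The 5 closing lines of each table were left out. Of 60603 gene identifiers, 58483 matched GENCODE 29, used for symbols, GC content and length.

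Counts were fitted with edgeR 4.0.16 in R 4.3.3 (TMM scaling, filterByExpr with a minimum count of 10, robust quasi-likelihood test) over all 12 libraries with 6 group means, so that the spread is shared. This left 17057 genes; p-values were adjusted over all of them by Benjamini-Hochberg and called under 0.05. CPM are counts divided by the TMM-scaled library size, as edgeR's cpm function gives them. The biological coefficient of variation was 3.70%, with 6 residual degrees of freedom. P-values rest on the spread between separate transductions, pooled over the 6 groups of both lines and moderated across genes. The total degrees of freedom had a median of 35.2. P-values therefore do not measure the spread of the VAL libraries alone, where the wild-type pair differed more than the other pairs. Alternatives were DESeq2 1.42.0, limma-voom 3.58.1, other scaling, filters and sets of libraries, a replicate block, a correction for GC content and length, and leaving out each library. The scripts were tested on simulated data.

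Named genes are BCL7A; the 15 largest called changes in each direction among protein-coding genes with a mean of at least 1 CPM whose groups do not overlap; up to 6 called members of each of 31 gene lists by smallest p; and the 6 largest in both lines and, in each direction, between lines. Other list members are named with their calls. The promoters shown belong to called genes of 3 lists that hold the searched motif, 2 per list by smallest p, from RefSeq sequences on GRCh38.p14. The comparison, the members and the lists were chosen with earlier results of these data known. Some named items are not reported here.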

Additional observations from a re-analysis of the deposited data

Results flagged for a closer look

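For 31 named genes the response to the construct differed between VAL and OCI-LY1 in a test of the difference itself (edgeR quasi-likelihood interaction, adjusted p under 0.05). The values are VAL minus OCI-LY1 differences of the log2 fold change of wild type over delta27-BCL7A, with 2 libraries in each of the 4 groups, and cell line and day cannot be told apart. The difference was below 0 for the mitochondrial mRNAs MT-ND1 (-0.48), MT-ND2 (-0.76), MT-ND3 (-0.90), MT-ND4L (-0.39), MT-ND5 (-0.82), MT-CO2 (-0.57), MT-ATP6 (-0.49) and MT-ATP8 (-0.68). It was above 0 for the MHC genes HLA-B (0.63), HLA-C (0.35) and HLA-DMB (0.75). It was also above 0 for the NF-kB and interferon genes CD40 (0.48), TNFAIP3 (0.66), ICAM1 (0.43), GPR183 (0.93), IRF4 (0.54) and ISG20 (0.52), and for the B cell genes CD53 (0.36), PRKCB (0.63) and PIM1 (0.39). Of the remaining genes, the difference was above 0 for MOB3C (0.78), PFKFB4 (1.09), ZDHHC14 (1.86), SDC3 (1.74), DEPP1 (1.64) and PHYH (1.02), and below 0 for TERT (-0.84), AK5 (-1.37), NFATC2 (-0.59), TP73 (-1.03) and BCL11A (-0.95).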

How the results depend on the processing

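The 1547 calls in VAL (774 higher and 773 lower with the wild type) became 1007 with DESeq2 (409 higher), 907 with the VAL libraries alone (490 higher, 417 lower) and 540 with only the 4 libraries compared (318 and 222). Leaving out 1 library gave 438 to 2417, with 307 to 1253 higher and 131 to 1164 lower. For the VAL minus OCI-LY1 difference, 77 calls became 50 with DESeq2, 51 with limma-voom and 144 with no filter on low counts, and 23 to 631 on leaving out a library. The 521 calls in OCI-LY1 became 328 with DESeq2 and 75 to 517 on leaving out a library. Interferon genes called higher, 27, became 16 with only the 4 libraries compared and 12 to 28 on leaving out a library, and B cell surface genes, 17, became 11 to 20. Same-numbered VAL libraries of wild type and delta27-BCL7A showed no shared deviation (correlation of their deviations over genes -0.040). That value cannot show whether they were prepared together. With the replicate block 1518 genes were called in VAL. Of 177 named genes called in VAL, 91 kept their call in every alternative that gave them a result, and 0 reversed. Not every alternative gave a result for every gene. With DESeq2 142 kept their call and 13 lost it, and without mitochondrial genes 167 kept it and 0 lost it. The rest of the 177 had no result there and are not counted as lost. With 2 libraries a group, small differences rest on single libraries. Causes were not tested.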
